A study of Caenorhabditis elegans with 8 samples.

Results

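Whole-animal transcripts of Caenorhabditis elegans were compared between post-dauers and dauers of the daf-2; hzl-1 background, in which both aak genes are intact. The genes described are the 14692 of 46904 genes in the deposited tables whose FPKM (a length-corrected fragment count relative to the library's mapped total) averaged at least 1 over the 4 libraries of this background. The emphasis is on gene families and pathways other than the yolk, major sperm protein and flp neuropeptide genes.

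Post-dauers of genotype daf-2; hzl-1 were collected after 192 h and dauers of the same genotype after 96 h, each as 2 libraries of whole hermaphrodites. Every animal in the comparison is mutant for daf-2, which encodes the worm's insulin/IGF receptor, and for hzl-1 (C44H9.4 in the files). An animal wild type for either gene was not analysed here. The remaining libraries of the series, used only where stated, are 2 post-dauer and 2 dauer libraries of daf-2; aak(0); hzl-1, labelled aak(0), which the series text gives as mutant also for aak-1 and aak-2, the genes for the catalytic subunit of the energy sensor AMPK. Alleles are not named in the labels, and the series text and the growth protocol differ on whether animals were moved to a permissive temperature between the collections. Stage, age and any temperature change therefore cannot be told apart. The labels do not say that the 2 libraries of a group came from separate cultures, so p-values measure the spread between libraries, which may be technical.

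The dauer is a non-feeding larva that worms enter in place of an ordinary larval stage when insulin and TGF-beta signalling fall and the nuclear receptor DAF-12 lacks its steroid ligands, the dafachronic acids. It lives on stored fat and glycogen, lowers oxidative metabolism, raises proteins that protect against stress and desiccation and seals itself in a distinct cuticle. On recovery it feeds, molts, resumes growth and becomes a reproductive adult with a full germ line.

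Recovered reads totalled, in units of 1e6, 15.61 and 18.75 in post-dauers and 13.99 and 18.72 in dauers. Dauer library 1 stood apart from dauer library 2. Ribosomal RNA took 0.711% and 0.559% of reads in post-dauers, against 12.8% in dauer library 1 and 3.49% in dauer library 2, and the Spearman correlation between replicates was 0.977 for post-dauers and 0.935 for dauers. Results that rest on one of these libraries are given with and without it. The mutated daf-2 gene had 23.3 and 28.0 FPKM in post-dauers, against 33.1 and 29.7 FPKM in dauers, with no call. The aak genes, intact here, were both detected: aak-1 had 8.75 and 8.59 FPKM in post-dauers, against 3.10 and 3.19 FPKM in dauers, and aak-2 had 20.2 and 18.4 FPKM in post-dauers, against 35.6 and 43.6 FPKM in dauers. The libraries labelled aak(0) held transcripts of both as well: aak-1 had 7.16 and 7.72 FPKM in aak(0) post-dauers, against 14.7 and 9.99 FPKM in aak(0) dauers, and aak-2 had 9.85 and 9.4 FPKM in aak(0) post-dauers, against 37.9 and 49.1 FPKM in aak(0) dauers. Transcripts of hzl-1 were under the FPKM minimum, at 0.47 and 1.44 FPKM in post-dauers and 0.50 and 0.59 FPKM in dauers. A gene-level value does not check a label here, because the positions of the mutations are not given in the sources used.

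Most measured genes differed between post-dauers and dauers. Of the 14692 genes, 69.6% passed the test at an adjusted p under 0.05 (limma on log2(FPKM + 1), Benjamini-Hochberg over all genes): 5908 (40.2%) were higher in post-dauers and 4312 (29.3%) were lower. The change exceeded log2 1 in 8544 of the genes called, exceeded log2 3 upward in 945 and downward in 649. Both post-dauer libraries were above both dauer libraries in 7259 genes (49.4%) and under both in 5327 (36.3%). The median gene moved by log2 0.34, and by 0.18 after division by TMM factors, so list medians below are read against the 0.34 of all genes. With that scaling the share of calls that were higher was 53.7%, against 57.8% without it. On recovered reads edgeR called 37.7% of 14530 genes higher and 33.8% lower. The authors' deposited table gave an adjusted p under 0.05 for 9975 of the same genes, 5341 of them higher in post-dauers.

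Outside the yolk, sperm and uterine families, the largest rises included a collagen (col-140, described below), an eggshell gene, lysozymes and proteases. The eggshell permeability gene perm-4 (WBGene00016638, IV:1121457-1125107, build WBcel235) had 769 and 779 FPKM in post-dauers, against 0.00 and 0.06 FPKM in dauers (adjusted p = 1.54e-05). The gene dct-16 (WBGene00012615, V:20497922-20499103) had 5682 and 6258 FPKM in post-dauers, against 6.06 and 30.7 FPKM in dauers (log2 8.64 ± 0.61, adjusted p = 4.98e-05). Transcripts of ilys-5 (WBGene00017691, X:6533493-6536840), an invertebrate-type lysozyme, were at 530.4 and 605 FPKM in post-dauers, against 0.50 and 0.82 FPKM in dauers (log2 8.42 ± 0.27, adjusted p = 5.34e-06). In all 3 the post-dauer libraries lay close together and far above both dauer libraries. Another lysozyme gene, lys-4 (WBGene00003093, IV:11621443-11623174), had 428 and 576 FPKM in post-dauers, against 0.80 and 0.74 FPKM in dauers (log2 8.14 ± 0.56, adjusted p = 4.68e-05). The aspartyl protease gene asp-2 (WBGene00000215, V:9203077-9204734) had 549 and 602 FPKM in post-dauers, against 0.86 and 2.25 FPKM in dauers (log2 7.87 ± 0.25, adjusted p = 5.34e-06), and 74 nt of its 1381 nt of exons overlap inx-10 on the opposite strand. The cathepsin B-like gene cpr-5 (WBGene00000785, V:1132598-1134036) had 307 and 319 FPKM in post-dauers, against 0.00 and 1.07 FPKM in dauers (adjusted p = 1.32e-05). These genes were named by a rule that required post-dauer and dauer libraries not to overlap, which held upward for 49.4% of all genes.

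Among the largest falls outside those families was oac-39 (WBGene00006419, V:246618-251756), an acyltransferase homolog, with 60.2 and 27.2 FPKM in post-dauers, against 2391 and 2566 FPKM in dauers (log2 -5.90 ± 0.55, adjusted p = 0.000143). The gene ntc-1 (WBGene00044568, X:4866075-4866690), which encodes the vasopressin-like neuropeptide nematocin, had 1.11 and 0.38 FPKM in post-dauers, against 69.1 and 58.3 FPKM in dauers (log2 -5.24 ± 0.28, adjusted p = 1.98e-05). Transcripts of rpr-1 (WBGene00045238, I:13463955-13464207), the RNA component of ribonuclease P, stood at 7.18 and 5.60 FPKM in post-dauers, against 427 and 407 FPKM in dauers (log2 -5.83 ± 1.02, adjusted p = 0.00212). On the log2 scale these falls were smaller than the rises above. The same rule required the libraries of the 2 stages not to overlap, which held downward for 36.3% of all genes. The libraries were poly(A)-selected, so RNAs without a tail are measured only in part. As a share of all FPKM of a library, the 195 tested genes annotated as ncRNA made up 0.479% and 0.406% in post-dauers and 2.06% and 2.28% in dauers.

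Calls were unevenly spread over the chromosomes. On chromosome X 24.2% of 2005 genes were higher and 41.3% were lower in post-dauers, with a median of log2 -0.45. On chromosome V 33.5% of 2975 genes were higher and 36.3% were lower, with a median of log2 -0.18. The 4 other autosomes all had more higher than lower calls, up to 48.1% higher and 21.6% lower of 2407 genes on chromosome I, where the median was log2 0.71. By edgeR the same split was 23.1% higher and 46.8% lower on X, and 44.6% higher and 25.2% lower on I. The order of the medians was the same after division by TMM factors.

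**Figure D1:**
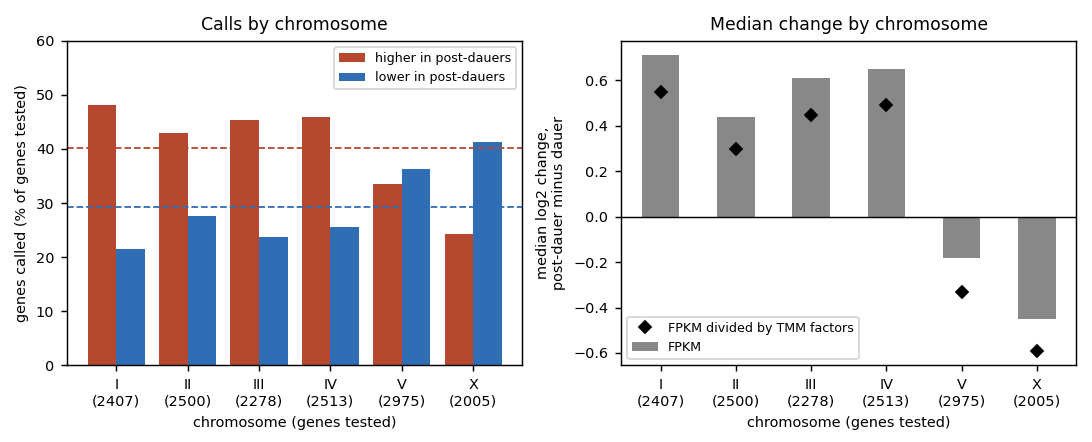
Left, percent of tested genes called higher or lower in post-dauers than in dauers on each chromosome, with dashed lines at the 40.2% and 29.3% of all genes. Right, the median log2 change (post-dauer minus dauer) with bars for FPKM and diamonds for FPKM divided by TMM factors. Chromosome X has the highest share of lower genes among those plotted, at 41.3%.

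Carbohydrate metabolism shifted in selected enzymes more than as a pathway. Of 19 glycolytic genes 9 rose (47.4%, against 40.2% of all genes), and the list's median was log2 0.42, against 0.34 over all genes. Glyceraldehyde-3-phosphate dehydrogenase is encoded by 4 genes. One of them, gpd-1, had 369 and 348 FPKM in post-dauers, against 19.4 and 23.4 FPKM in dauers (log2 4.01 ± 0.17, adjusted p = 1.07e-05), and gpd-4 had 206 and 189 FPKM in post-dauers, against 17.1 and 16.6 FPKM in dauers (log2 3.48 ± 0.16, adjusted p = 1.37e-05). The other genes of the enzyme were abundant at both stages: gpd-3 had 367 and 315 FPKM in post-dauers, against 422 and 580.3 FPKM in dauers, and gpd-2, which is added here to complete the set after its values were seen, had 325 and 269 FPKM in post-dauers, against 299.9 and 363 FPKM in dauers. Dauers thus held little of gpd-1 and gpd-4 beside gpd-2 and gpd-3, while post-dauers held all 4 at 189 to 369 FPKM. Reads of near-identical copies may be divided uncertainly within the gpd genes. The call on gpd-3 (log2 -0.54 ± 0.19, adjusted p = 0.04) was lost without any library other than dauer library 1. Of 3 glycolytic genes that fell, the aldolase gene aldo-1 kept its call without any one library, with 63.0 and 47.5 FPKM in post-dauers, against 258 and 251 FPKM in dauers (log2 -2.197 ± 0.19, adjusted p = 0.000104). It was the single fall left without post-dauer library 1 or 2, dauer library 2 or either aak(0) dauer library. Lactate dehydrogenase ldh-1 rose (log2 0.79 ± 0.23), but not without post-dauer library 1 or 2.

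Of 17 trehalose and glycogen genes 7 rose and 5 fell (41.2% and 29.4%, near the 40.2% and 29.3% of all genes), and 3 fell without post-dauer library 1 or 2 or dauer library 2. Glycogen phosphorylase pygl-1, which releases glucose units from glycogen, had 544 and 513 FPKM in post-dauers, against 67.2 and 81.2 FPKM in dauers (log2 2.82 ± 0.16, adjusted p = 2.51e-05). Glycogen synthase gsy-1 had 87.3 and 79.1 FPKM in post-dauers, against 17.3 and 20.8 FPKM in dauers (log2 2.07 ± 0.17, adjusted p = 8.33e-05). The glycogenin gene gyg-2, whose product primes glycogen synthesis, had 317 and 318 FPKM in post-dauers, against 4.98 and 4.33 FPKM in dauers (log2 5.82 ± 0.16, adjusted p = 4.72e-06). The other rises were those of gyg-1, agl-1, aagr-1 and aagr-2, and agl-1 lost its call without post-dauer library 1 or dauer library 1. Trehalose, a sugar that protects membranes in dry animals, is made by tps-1 and tps-2. Transcripts of tps-2 fell, with 46.0 and 39.3 FPKM in post-dauers, against 129 and 195 FPKM in dauers (log2 -1.88 ± 0.25, adjusted p = 0.000613), and tps-1 had 10.4 and 9.76 FPKM in post-dauers, against 25.4 and 31.2 FPKM in dauers (log2 -1.397 ± 0.40, adjusted p = 0.0186), a call that was lost when any one of the 4 libraries of the background was left out. The other falls were those of gob-1, tre-2 and tre-5, and gob-1 lost its call without post-dauer library 1 or 2, dauer library 2 or either aak(0) dauer library. No call was made for tre-1, tre-3, tre-4, aagr-3 or aagr-4.

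The glyoxylate cycle lets worms build sugar from fat. Of 7 genes of this cycle and gluconeogenesis 3 rose and 2 fell (42.9% and 28.6%, near the 40.2% and 29.3% of all genes). Fewer fell without any one library of the background or either aak(0) dauer library. The cycle's enzyme gene icl-1 had 126 and 109 FPKM in post-dauers, against 320.1 and 218 FPKM in dauers (log2 -1.17 ± 0.26, adjusted p = 0.00587), so post-dauers were lower by more than the spread within either stage. For the gluconeogenic gene pck-2 no call was made, with 436 and 367 FPKM in post-dauers, against 346 and 414 FPKM in dauers, and its relative pck-1 had 97.0 and 103 FPKM in post-dauers, against 142 and 164 FPKM in dauers, a fall (log2 -0.61 ± 0.21, adjusted p = 0.0347) that was lost without any one of the 4 libraries or either aak(0) dauer library. The malate dehydrogenase gene mdh-1 rose, with 476 and 435 FPKM in post-dauers, against 176 and 234.91 FPKM in dauers (log2 1.16 ± 0.20, adjusted p = 0.00191).

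In the citrate cycle and pyruvate dehydrogenase list 13 of 23 genes rose and 2 fell (4 by edgeR; median log2 0.55). The succinate dehydrogenase flavoprotein is encoded by a pair of genes. Transcripts of sdha-2 rose, with 110.2 and 100 FPKM in post-dauers, against 23.6 and 17.2 FPKM in dauers (log2 2.32 ± 0.18, adjusted p = 7.75e-05), while sdha-1 had 42.8 and 40.7 FPKM in post-dauers, against 33.5 and 36.8 FPKM in dauers, and was not called. A similar contrast held within the respiratory chain and ATP synthase, where 10 of 39 nuclear genes rose and 10 fell (25.6% each, against 40.2% and 29.3% of all genes). By edgeR 6 rose and 12 fell, and without post-dauer library 2 both limma counts were smaller. The ATP synthase b subunit gene asb-1, known for its germline expression, had 293 and 303 FPKM in post-dauers, against 87.7 and 84.0 FPKM in dauers (log2 1.78 ± 0.13, adjusted p = 5.04e-05). Its somatic relative asb-2 had 259 and 231 FPKM in post-dauers, against 569 and 699.6 FPKM in dauers (log2 -1.37 ± 0.17, adjusted p = 0.000466). Cytochrome c showed the same opposition: cyc-2.2 had 66.7 and 65.0 FPKM in post-dauers, against 0.88 and 2.72 FPKM in dauers (log2 4.66 ± 0.42, adjusted p = 0.000125), and cyc-2.1, the more abundant gene at both stages, had 1186 and 1001 FPKM in post-dauers, against 2048 and 2843 FPKM in dauers (log2 -1.15 ± 0.22, adjusted p = 0.00352). In each of these pairs the post-dauer libraries lay wholly on one side of the dauer libraries. The pairs moved against each other within a list whose median was log2 -0.14 and whose summed FPKM was 13090 and 12130 in post-dauers, against 13470 and 17340 in dauers. The complex III core gene ucr-2.1 also fell, with 69.4 and 62.9 FPKM in post-dauers, against 188 and 271 FPKM in dauers (log2 -1.75 ± 0.20, adjusted p = 0.000321).

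**Figure D2:**
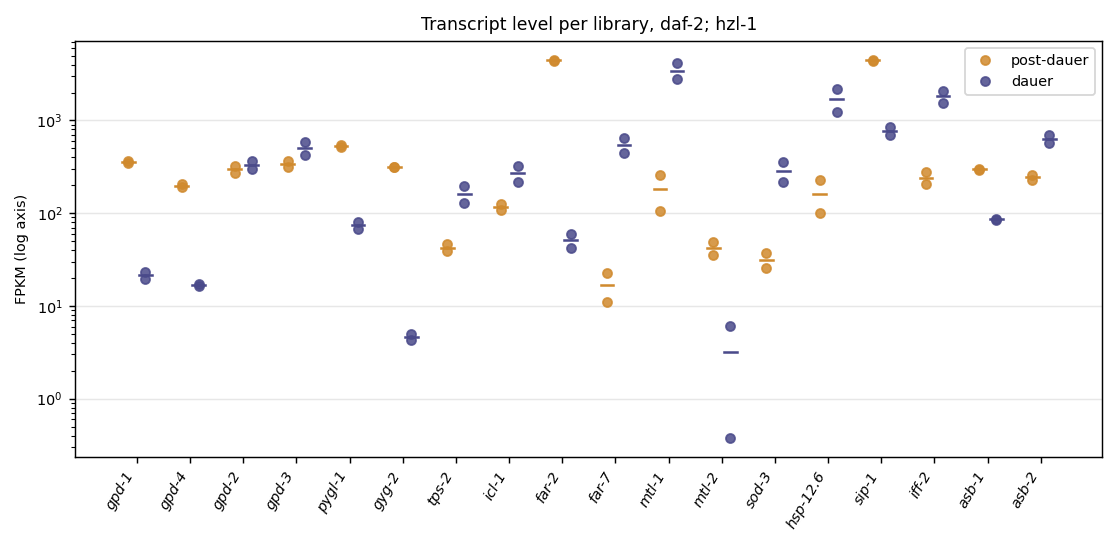
FPKM of 18 genes of sugar, lipid, stress and mitochondrial functions in each post-dauer (left of each pair) and dauer library (right), on a log axis, with points for libraries and short lines for means. Within paralogue sets one gene is higher and another lower in post-dauers, as for asb-1 against asb-2, far-2 against far-7 and mtl-2 against mtl-1.

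Genes that burn, build and carry fatty acids had many members higher in post-dauers. In mitochondrial beta-oxidation and the carnitine shuttle 20 of 30 genes rose (66.7%, against 40.2% of all genes; median log2 1.05), and cpt-4 was the fall that held without any one library, with 6.98 and 5.54 FPKM in post-dauers, against 31.1 and 42.3 FPKM in dauers (log2 -2.37 ± 0.29, adjusted p = 0.000422). The acyl-CoA dehydrogenase gene acdh-1, part of the propionate shunt, had 297 and 93.6 FPKM in post-dauers, against 5.10 and 14.6 FPKM in dauers (log2 4.104 ± 0.63, adjusted p = 0.00118). Enoyl-CoA hydratase ech-6 had 216 and 158 FPKM in post-dauers, against 47.7 and 66.8 FPKM in dauers (log2 1.69 ± 0.23, adjusted p = 0.000658). Both genes were higher in each post-dauer library than in each dauer library, although the post-dauer libraries of acdh-1 lay far apart. Peroxisomal beta-oxidation, which also shortens the side chains of ascaroside pheromones, had 6 of 12 genes higher and 1 lower (2 without dauer library 1, 3 by edgeR). Of these acox-1.4 had 24.4 and 26.4 FPKM in post-dauers, against 0.00 and 2.96 FPKM in dauers (log2 3.73 ± 0.58, adjusted p = 0.00128), while the peroxisomal import receptor gene prx-5 had 11.0 and 11.9 FPKM in post-dauers, against 28.1 and 35.0 FPKM in dauers (log2 -1.38 ± 0.22, adjusted p = 0.00139).

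Fatty acid synthesis, elongation and desaturation genes were higher in 14 of 21 cases and lower in 2 (median log2 1.32). These are 66.7% and 9.52%, against 40.2% and 29.3% of all genes. Acetyl-CoA carboxylase pod-2, which commits carbon to fatty acid synthesis, had 74.8 and 62.3 FPKM in post-dauers, against 19.7 and 16.16 FPKM in dauers (log2 1.88 ± 0.19, adjusted p = 0.000208), whereas fatty acid synthase fasn-1 had 32.0 and 24.8 FPKM in post-dauers, against 23.2 and 25.0 FPKM in dauers, and was not called. The stearoyl-CoA desaturase gene fat-6 had 239.7 and 248 FPKM in post-dauers, against 19.1 and 59.0 FPKM in dauers (log2 2.82 ± 0.45, adjusted p = 0.0014). Its close relative fat-7 had 15.3 and 26.6 FPKM in post-dauers, against 0.00 and 0.00 FPKM in dauers, where it was listed at 0. The elongase elo-5, needed for branched-chain fatty acids, had 147 and 172 FPKM in post-dauers, against 12.7 and 13.5 FPKM in dauers (log2 3.50 ± 0.20, adjusted p = 2.70e-05). Post-dauers thus held more transcript of the first committed enzyme and of desaturation and elongation enzymes, while the stages overlapped for the synthase. The omega-3 desaturase gene fat-1 fell, with 270.2 and 258 FPKM in post-dauers, against 476 and 515 FPKM in dauers (log2 -0.90 ± 0.14, adjusted p = 0.00128). It was the single fall left without post-dauer library 1 or 2 or dauer library 2.

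Lipid carriers changed strongly in both directions. Of 17 genes for fatty acid and retinol binding (far) or intracellular lipid-binding (lbp) proteins, 10 rose and 5 fell. These are 58.8% and 29.4%, against 40.2% and 29.3% of all genes. The secreted carrier gene far-2 had 4525 and 4419 FPKM in post-dauers, against 41.8 and 59.9 FPKM in dauers (log2 6.45 ± 0.20, adjusted p = 5.27e-06). Its relative far-7 had 22.5 and 11.0 FPKM in post-dauers, against 445 and 654 FPKM in dauers (log2 -5.01 ± 0.35, adjusted p = 4.76e-05). The intracellular carrier lbp-6 had 801 and 776 FPKM in post-dauers, against 76.7 and 134 FPKM in dauers (log2 2.94 ± 0.27, adjusted p = 0.000145). In post-dauers far-2 was the most abundant of the list, and in dauers far-1 was, with 1224 and 1062 FPKM in post-dauers, against 1895 and 2723 FPKM in dauers. The fall of far-1 (log2 -0.99 ± 0.23) was lost without post-dauer library 2. Of 12 lipase and lipid droplet genes 5 rose and 2 fell (41.7% and 16.7%, against 40.2% and 29.3% of all genes). The lysosomal lipase gene lipl-1 had 53.7 and 82.5 FPKM in post-dauers, against 0.00 and 0.83 FPKM in dauers (adjusted p = 2.96e-05), and lipl-5 had 165 and 226 FPKM in post-dauers, against 48.4 and 51.3 FPKM in dauers (log2 1.93 ± 0.18, adjusted p = 0.00015).

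Amino acid breakdown and one-carbon metabolism followed the same direction. Of 25 breakdown genes 16 rose and 2 fell (64.0% and 8.00%, against 40.2% and 29.3% of all genes, median log2 1.11). On the kynurenine pathway the genes moved apart: tryptophan dioxygenase tdo-2, which starts it, had 52.2 and 54.7 FPKM in post-dauers, against 118 and 201 FPKM in dauers (log2 -1.51 ± 0.35, adjusted p = 0.00786), and the downstream genes kynu-1 and haao-1 rose. Kynureninase kynu-1 had 60.5 and 61.9 FPKM in post-dauers, against 3.80 and 14.5 FPKM in dauers (log2 2.85 ± 0.49, adjusted p = 0.00199). The dioxygenase haao-1 had 20.3 and 24.4 FPKM in post-dauers, against 1.33 and 2.02 FPKM in dauers (log2 3.13 ± 0.41, adjusted p = 0.00062). In the methionine and folate cycle 10 of 19 genes rose and 3 fell (52.6% and 15.8%). Fewer fell without post-dauer library 2 or dauer library 2. The phosphoethanolamine methyltransferase gene pmt-2, of phosphatidylcholine synthesis, had 294 and 245 FPKM in post-dauers, against 30.4 and 43.2 FPKM in dauers (log2 2.85 ± 0.22, adjusted p = 6.72e-05). S-adenosylmethionine synthetase sams-1 had 124 and 100.2 FPKM in post-dauers, against 58.8 and 53.9 FPKM in dauers (log2 0.97 ± 0.17, adjusted p = 0.00221), and serine hydroxymethyltransferase mel-32 had 377 and 324 FPKM in post-dauers, against 96.3 and 113 FPKM in dauers (log2 1.74 ± 0.17, adjusted p = 0.000163).

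Stress genes did not fall as a block. Of 30 superoxide, peroxide, thioredoxin and metallothionein genes 9 rose and 10 fell (30.0% and 33.3%, against 40.2% and 29.3% of all genes, median log2 -0.04). The manganese superoxide dismutase gene sod-3, a known target of DAF-16, had 37.2 and 25.6 FPKM in post-dauers, against 215 and 355 FPKM in dauers (log2 -3.12 ± 0.33, adjusted p = 0.000247). The catalase gene ctl-1 had 63.9 and 57.8 FPKM in post-dauers, against 149 and 176 FPKM in dauers (log2 -1.398 ± 0.18, adjusted p = 0.00053), and ctl-2 had 50.8 and 55.1 FPKM in post-dauers, against 111 and 126 FPKM in dauers (log2 -1.15 ± 0.15, adjusted p = 0.000657). Copper-zinc superoxide dismutase sod-1 had 439 and 411 FPKM in post-dauers, against 287 and 360.0 FPKM in dauers, and was not called. The metallothioneins, small metal-binding proteins, moved in opposite directions. Transcripts of mtl-1 were at 259 and 107 FPKM in post-dauers, against 2771 and 4119 FPKM in dauers (log2 -4.33 ± 0.40, adjusted p = 0.000139). Those of mtl-2 were at 35.7 and 48.5 FPKM in post-dauers, against 0.38 and 6.05 FPKM in dauers (log2 3.77 ± 0.68, adjusted p = 0.00242).

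Small heat shock and desiccation proteins were also mixed, with 6 of 16 higher and 5 lower (37.5% and 31.2%, near the 40.2% and 29.3% of all genes). The insulin-regulated gene hsp-12.6 had 225 and 101 FPKM in post-dauers, against 1228 and 2198 FPKM in dauers (log2 -3.44 ± 0.53, adjusted p = 0.00127), and hsp-12.3 had 19.3 and 12.14 FPKM in post-dauers, against 131 and 181 FPKM in dauers (log2 -3.24 ± 0.26, adjusted p = 8.28e-05). The dauer-enriched gene dur-1 had 46.2 and 20.4 FPKM in post-dauers, against 486 and 504 FPKM in dauers (log2 -3.97 ± 0.35, adjusted p = 0.000115). Against these falls, sip-1, a small heat shock protein of the germ line and embryo, had 4533 and 4355 FPKM in post-dauers, against 846 and 700.5 FPKM in dauers (log2 2.53 ± 0.19, adjusted p = 6.27e-05), which made it the most abundant of the list in post-dauers. The gene lea-1, for a late embryogenesis abundant-like protein of desiccation tolerance, also rose, with 1159 and 895 FPKM in post-dauers, against 386 and 558 FPKM in dauers (log2 1.13 ± 0.22, adjusted p = 0.00337). Among 29 chaperones 14 rose and 3 fell. The endoplasmic reticulum chaperone hsp-4 (BiP) had 294 and 296 FPKM in post-dauers, against 43.9 and 60 FPKM in dauers (log2 2.50 ± 0.17, adjusted p = 4.33e-05), while the cytosolic chaperone hsp-90 had 2061 and 1778 FPKM in post-dauers, against 4199 and 5541 FPKM in dauers (log2 -1.33 ± 0.22, adjusted p = 0.00156). Without dauer library 1, or by edgeR, 5 chaperones fell.

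**Figure D3:**
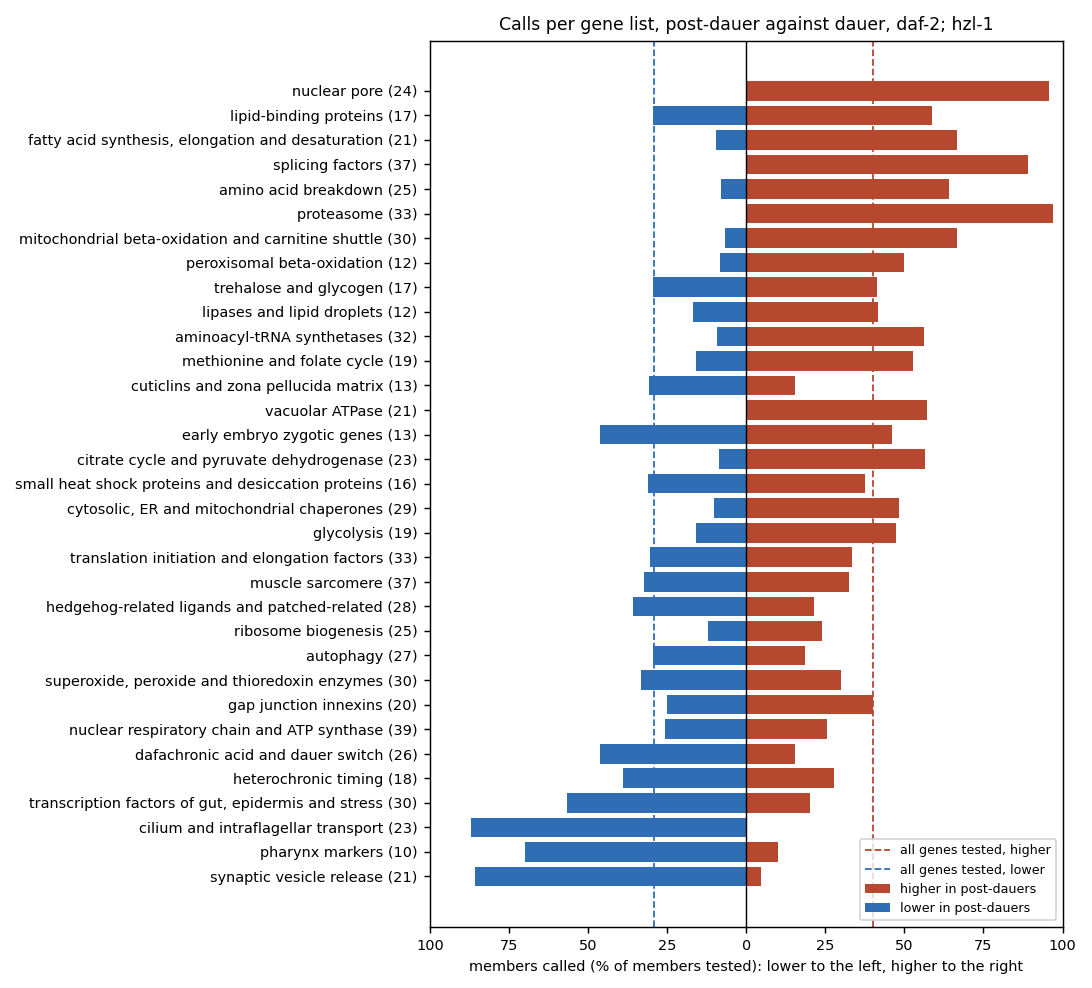
Percent of the tested members of each gene list called higher (right) or lower (left) in post-dauers than in dauers, for lists with at least 10 tested members (number in parentheses), ordered by median log2 change, with dashed lines at the 40.2% higher and 29.3% lower of all genes. Proteasome, nuclear pore and splicing lists stand at 97.0%, 95.8% and 89.2% higher, and the cilium and synaptic vesicle lists at 87.0% and 85.7% lower. Of the cilium list 23 of 39 genes were tested. A gene passes the FPKM minimum there through its dauer level, so the 87.0% describes the genes measured and not the whole list.

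The machinery of protein destruction and messenger RNA maturation rose almost without exception. Of 33 proteasome subunit genes 32 rose and 0 fell (97.0%, median log2 1.06), and all 33 changes lay between log2 0.18 and 1.92. The regulatory subunit rpn-1 had the largest, with 163 and 143 FPKM in post-dauers, against 42.9 and 36.7 FPKM in dauers (log2 1.92 ± 0.16, adjusted p = 8.84e-05). Of 24 nuclear pore genes 23 rose and 0 fell (median log2 1.49), led by npp-22, with 86.6 and 96.2 FPKM in post-dauers, against 18.0 and 18.3 FPKM in dauers (log2 2.27 ± 0.14, adjusted p = 3.20e-05). Of 37 splicing factors 33 rose and 0 fell (median log2 1.21), led by prp-19, with 131 and 130.1 FPKM in post-dauers, against 37.7 and 33.8 FPKM in dauers (log2 1.84 ± 0.13, adjusted p = 5.31e-05). By edgeR 29 proteasome, 21 nuclear pore and 32 splicing genes rose and 0 fell. Summed proteasome FPKM was 7578 and 7587 in post-dauers, against 3576 and 3937 in dauers.

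Translation genes were divided. Cytosolic ribosomal protein genes were lower in post-dauers, with 29 of 31 small-subunit (rps) and 38 of 47 large-subunit (rpl) genes called (median log2 -0.98 and -1.02). Without post-dauer library 2 these counts were 11 and 22, and without dauer library 2 the small-subunit count was 16. Of 32 aminoacyl-tRNA synthetases 18 rose, among them the glycine enzyme gars-1, with 104 and 94.4 FPKM in post-dauers, against 42.0 and 40.2 FPKM in dauers (log2 1.25 ± 0.15, adjusted p = 0.000382), and 3 fell (1 without post-dauer library 1 or 2), among them the serine enzyme sars-1, with 161 and 138 FPKM in post-dauers, against 279 and 386 FPKM in dauers (log2 -1.13 ± 0.19, adjusted p = 0.00188). Of 33 translation factor genes 11 rose and 10 fell (33.3% and 30.3%, against 40.2% and 29.3% of all genes). The factor eIF5A is encoded by iff-1 and iff-2. Transcripts of iff-2 fell to 279 and 205 FPKM in post-dauers, against 1543 and 2102 FPKM in dauers (log2 -2.91 ± 0.24, adjusted p = 8.71e-05), while iff-1 had 2654 and 2725 FPKM in post-dauers, against 2273 and 2531 FPKM in dauers, and was not called. The elongation factor gene eef-1A.2 had 369.6 and 262 FPKM in post-dauers, against 859 and 898 FPKM in dauers (log2 -1.49 ± 0.21, adjusted p = 0.000885). The cap-binding protein gene ife-3 rose, with 314 and 296 FPKM in post-dauers, against 79.0 and 76.4 FPKM in dauers (log2 1.96 ± 0.16, adjusted p = 7.84e-05). Fibrillarin fib-1, a nucleolar enzyme of ribosome assembly, had 575 and 502 FPKM in post-dauers, against 216 and 184 FPKM in dauers (log2 1.43 ± 0.16, adjusted p = 0.000292), although the list of 25 ribosome biogenesis genes had 6 higher and 3 lower. Without either aak(0) post-dauer library those counts were 10 and 6, and without post-dauer library 1 a single one was lower.

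Of 21 vacuolar ATPase genes, whose products acidify lysosomes, 12 rose and 0 fell (57.1% higher, against 40.2% of all genes; 7 rose without post-dauer library 2). The intestinal subunit vha-6 had 129 and 128 FPKM in post-dauers, against 41.7 and 45.9 FPKM in dauers (log2 1.53 ± 0.14, adjusted p = 0.000127). Of 27 autophagy genes 8 fell (29.6%, near the 29.3% of all genes), and 5 rose (2 without post-dauer library 2 or dauer library 2, 3 without dauer library 1). The adaptor sqst-1 (p62) had 38.0 and 27.3 FPKM in post-dauers, against 147 and 198 FPKM in dauers (log2 -2.37 ± 0.22, adjusted p = 0.000138). The kinase unc-51, which starts autophagosome formation, had 10.6 and 9.66 FPKM in post-dauers, against 36.9 and 32.3 FPKM in dauers (log2 -1.68 ± 0.20, adjusted p = 0.00039), and the TFEB homolog hlh-30, a transcriptional regulator of autophagy, had 25.5 and 22.7 FPKM in post-dauers, against 73.9 and 69.6 FPKM in dauers (log2 -1.54 ± 0.15, adjusted p = 0.000177). The ubiquitin-like gene lgg-1 had 588 and 663 FPKM in post-dauers, against 685 and 1052 FPKM in dauers, and was not called, and epg-4 rose, with 50.5 and 65.0 FPKM in post-dauers, against 11.8 and 17.5 FPKM in dauers (log2 1.92 ± 0.25, adjusted p = 0.000555).

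Genes of the nervous system beyond the flp peptides fell in most members of the lists and families measured. FPKM is relative to the library's total. In RNA of whole animals, fewer cells of a type, less RNA per cell and more RNA from other tissues cannot be told apart. Of 21 synaptic vesicle and dense-core vesicle genes 18 fell and 1 rose (median log2 -2.26). The proprotein convertase egl-3, which cuts neuropeptide precursors, had 37.6 and 22.9 FPKM in post-dauers, against 566 and 467 FPKM in dauers (log2 -4.08 ± 0.26, adjusted p = 3.75e-05). The SNARE gene ric-4 (SNAP-25) had 13.1 and 16.7 FPKM in post-dauers, against 149 and 183 FPKM in dauers (log2 -3.40 ± 0.53, adjusted p = 0.00127), and synaptotagmin snt-1 had 2.84 and 4.21 FPKM in post-dauers, against 38.8 and 49.3 FPKM in dauers (log2 -3.32 ± 0.38, adjusted p = 0.000352). In each of these the post-dauer libraries lay far under both dauer libraries. The rise was that of the endophilin gene unc-57, with 75.8 and 81.2 FPKM in post-dauers, against 32.3 and 38.7 FPKM in dauers (log2 1.13 ± 0.15, adjusted p = 0.000587); 2 genes rose without either aak(0) post-dauer library. Of 73 nlp neuropeptide genes 55 fell and 10 rose (median log2 -2.92). The largest fall among nlp genes with a mean of at least 10 FPKM was that of nlp-42, with 8.18 and 3.23 FPKM in post-dauers, against 186 and 173 FPKM in dauers (log2 -4.86 ± 0.34, adjusted p = 5.21e-05).

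Receptor and channel families fell with them. Of 33 npr neuropeptide receptor genes 31 fell and 0 rose, of 33 lgc ligand-gated channel genes 26 fell and 0 rose (1 rose without dauer library 2), and of 31 twk potassium channel genes 25 fell and 0 rose. Of 32 globin-like (glb) genes, many of them expressed in neurons, 28 fell and 0 rose (median log2 -2.40). By edgeR the counts higher in post-dauers were 0 in all 4 families as well. Levels were low: lgc-28 had 5.33 and 3.79 FPKM in post-dauers, against 43.4 and 47.5 FPKM in dauers (log2 -3.07 ± 0.24, adjusted p = 7.06e-05). The potassium channel gene twk-7 had 3.73 and 2.41 FPKM in post-dauers, against 33.5 and 56.9 FPKM in dauers (log2 -3.48 ± 0.34, adjusted p = 0.000171), and glb-2 had 2.11 and 0.73 FPKM in post-dauers, against 30.9 and 40.0 FPKM in dauers (log2 -3.96 ± 0.32, adjusted p = 8.41e-05), with 76 nt of its 868 nt of exons shared with C06E4.3 on the opposite strand. Cilium and intraflagellar transport genes were tested in 23 of 39 cases, the rest being under the FPKM minimum. A gene passes that minimum here through its dauer level, so the 20 that fell (and 0 that rose) describe the genes measured and not the whole list. The same holds for the receptor and channel families, of which 33 of 53 lgc and 31 of 44 twk genes were tested. Rootletin gene che-10 had 3.77 and 3.94 FPKM in post-dauers, against 48.8 and 57.8 FPKM in dauers (log2 -3.48 ± 0.61, adjusted p = 0.00221), and the kinesin-2 motor gene osm-3 had 1.32 and 1.53 FPKM in post-dauers, against 11.3 and 7.43 FPKM in dauers (log2 -2.07 ± 0.27, adjusted p = 0.000607).

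**Figure D4:**
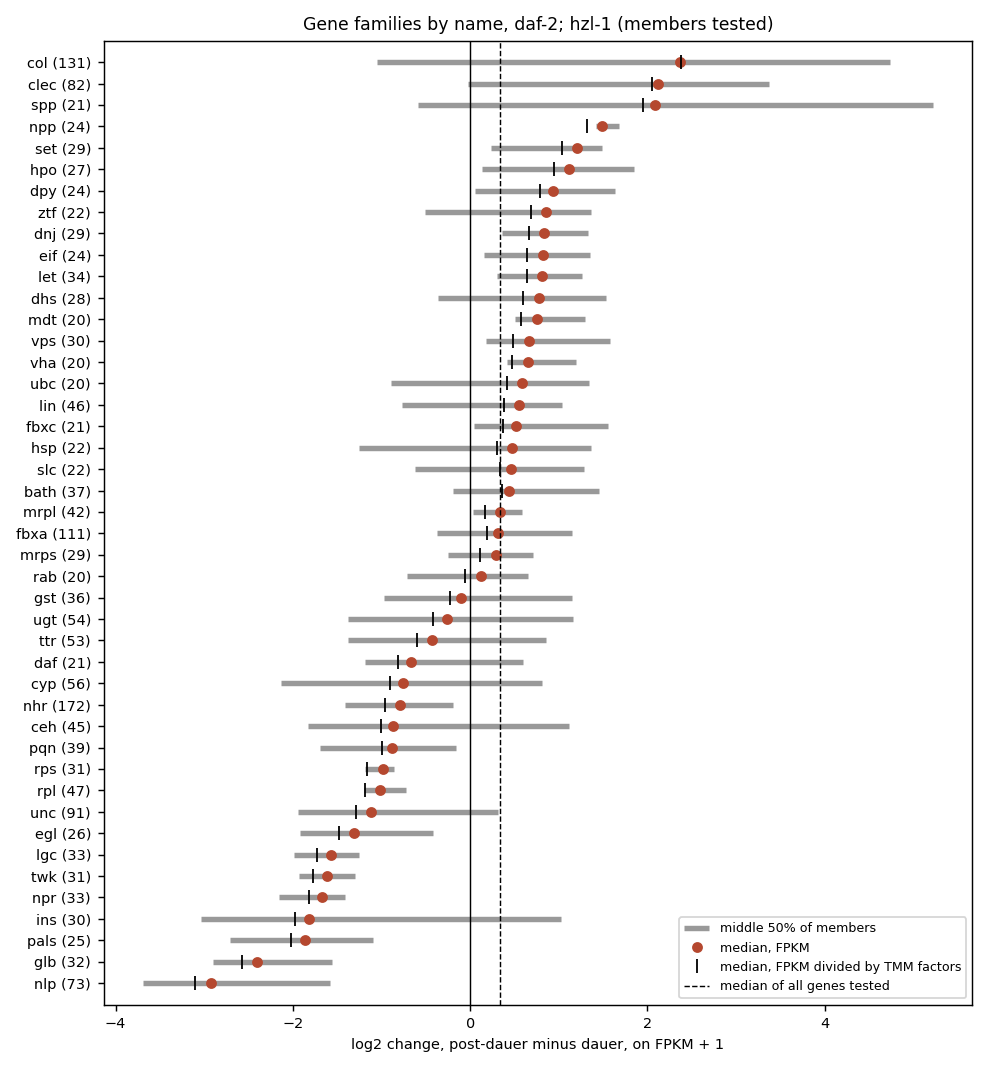
Median (circles) and interquartile range (grey lines) of the log2 change, post-dauer minus dauer, in gene name families with at least 20 tested members, with ticks for the median of FPKM divided by TMM factors and a dashed line at the 0.34 of all genes. Families of nervous system genes (nlp, glb, npr, twk, lgc) lie at medians of -2.92 to -1.57, and collagens (col), C-type lectins (clec) and saposin-like genes (spp) at 2.37, 2.12 and 2.09. Medians describe the tested members only, such as 33 of 53 lgc, 31 of 44 twk and 82 of 264 clec genes.

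Muscle genes, like genes at large, moved in both directions. Of 37 sarcomere genes 12 rose and 12 fell (32.4% each, against 40.2% and 29.3% of all genes), and fewer rose without post-dauer library 2. Body-wall myosin unc-54 had 123 and 80.8 FPKM in post-dauers, against 207 and 209.5 FPKM in dauers (log2 -1.05 ± 0.21, adjusted p = 0.00373). The pharyngeal myosin gene myo-2 had 4.14 and 1.58 FPKM in post-dauers, against 71.9 and 24.3 FPKM in dauers (log2 -3.56 ± 0.63, adjusted p = 0.00224), and troponin T gene tnt-3 had 22.8 and 11.0 FPKM in post-dauers, against 207 and 191 FPKM in dauers (log2 -3.56 ± 0.34, adjusted p = 0.000154). The troponin T gene mup-2 rose, with 235.46 and 184 FPKM in post-dauers, against 24.7 and 41.2 FPKM in dauers (log2 2.67 ± 0.25, adjusted p = 0.000153), as did the intestinal actin gene act-5, with 447 and 401 FPKM in post-dauers, against 73.7 and 98.4 FPKM in dauers (log2 2.299 ± 0.18, adjusted p = 7.12e-05). Of 21 pharynx markers 10 reached the FPKM minimum, 7 of which fell. A gene that passes through its dauer level has to differ, so the count does not describe the whole list. The organ's FoxA factor pha-4 had 2.79 and 1.85 FPKM in post-dauers, against 22.5 and 20.2 FPKM in dauers (log2 -2.76 ± 0.23, adjusted p = 9.20e-05). The summed FPKM of the 10 was 42.74 and 29.73 in post-dauers, against 243.1 and 161.2 in dauers.

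Of 20 gap junction genes 8 rose and 5 fell (40.0% and 25.0%, near the 40.2% and 29.3% of all genes). Gonad innexins were among the rises. Transcripts of inx-8, which joins sheath and germ cells, were at 75.1 and 94.2 FPKM in post-dauers, against 0.43 and 1.56 FPKM in dauers (log2 5.47 ± 0.30, adjusted p = 2.18e-05). The germline innexin genes inx-14 and inx-22 had related profiles: inx-14 had 91.1 and 105 FPKM in post-dauers, against 16.7 and 12.63 FPKM in dauers (log2 2.67 ± 0.25, adjusted p = 0.000142), and inx-22 had 66.8 and 69.5 FPKM in post-dauers, against 3.87 and 2.80 FPKM in dauers (log2 4.01 ± 0.18, adjusted p = 1.23e-05). The neuronal and muscle innexin unc-9 fell instead, with 2.63 and 2.93 FPKM in post-dauers, against 11.7 and 14.0 FPKM in dauers (log2 -1.86 ± 0.23, adjusted p = 0.000442).

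Surface genes were marked by the difference between the dauer libraries. Of 131 col collagen genes 78 rose and 19 fell (59.5% and 14.5%, against 40.2% and 29.3% of all genes, median log2 2.37). The fallen ones numbered 34 by edgeR, 46 without dauer library 1, 9 without post-dauer library 1 and 8 without post-dauer library 2. The summed FPKM of the family was 27840 and 25480 in post-dauers, against 1015 and 10580 in dauers. The adult collagen col-140 had 2312 and 2162 FPKM in post-dauers, against 0.43 and 0.42 FPKM in dauers (adjusted p = 0.000299). The collagen of largest fall, col-37, had 0.08 and 0.00 FPKM in post-dauers, against 10.7 and 778 FPKM in dauers, and its call was lost without post-dauer library 1 or 2; 225 nt of its 993 nt of exons overlap ZK863.10 on the opposite strand. Of 23 cuticlin and zona pellucida matrix genes 13 were tested, the rest being under the FPKM minimum. The 13 summed to 65.16 and 34.74 FPKM in post-dauers, against 21.23 and 353.8 FPKM in dauers. Of the 13, 2 were called higher and 4 lower (15.4% and 30.8%, against 40.2% and 29.3% of all genes). A gene can pass the minimum through dauer library 2 alone, so the counts describe the genes measured. Leaving out dauer library 2 made 6 higher, leaving out any other library of the background or either aak(0) dauer library made 1 higher, and leaving out post-dauer library 1 or 2 made 2 lower. The cuticlin gene cut-1 had 0.15 and 0.21 FPKM in post-dauers, against 0.55 and 272 FPKM in dauers, with no call. Why the dauer libraries differ in these genes was not tested.

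Patched-related genes, membrane proteins linked to cuticle and lipid handling, moved individually. Of 28 hedgehog-related and patched-related genes 6 rose and 10 fell (21.4% and 35.7%, against 40.2% and 29.3% of all genes), and more rose without dauer library 2. The gene ptr-2 had 96.7 and 95.8 FPKM in post-dauers, against 1.70 and 4.01 FPKM in dauers (log2 4.72 ± 0.28, adjusted p = 2.96e-05), and the Patched homolog ptc-1, needed in the germ line, had 151 and 147 FPKM in post-dauers, against 42.2 and 43.2 FPKM in dauers (log2 1.78 ± 0.19, adjusted p = 0.000254). Against these, ptr-23 had 10.5 and 6.98 FPKM in post-dauers, against 55.0 and 80.5 FPKM in dauers (log2 -2.82 ± 0.30, adjusted p = 0.00026).

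Regulators of the dauer decision and of developmental time were among the changed genes. Of 26 dauer switch genes 12 fell and 4 rose (46.2% and 15.4%, against 29.3% and 40.2% of all genes). Fewer fell without post-dauer library 1, and more rose without either aak(0) post-dauer library. The TGF-beta ligand gene daf-7, made by sensory neurons, had 1.53 and 1.24 FPKM in post-dauers, against 42.1 and 28.2 FPKM in dauers (log2 -3.90 ± 0.26, adjusted p = 4.25e-05). The oxygenase gene daf-36, at the start of dafachronic acid synthesis, had 13.9 and 22.9 FPKM in post-dauers, against 2.36 and 3.26 FPKM in dauers (log2 2.32 ± 0.57, adjusted p = 0.00974), a call that was lost without post-dauer library 2 or dauer library 1. The cytochrome P450 gene daf-9, at its end, had 1.21 and 1.05 FPKM in post-dauers, against 3.02 and 1.87 FPKM in dauers (log2 -0.67 ± 0.24, adjusted p = 0.0406), a call that was lost without post-dauer library 1 or 2, dauer library 1 or either aak(0) dauer library. Of 18 heterochronic genes 7 fell and 5 rose (38.9% and 27.8%, against 29.3% and 40.2% of all genes), and fewer fell without post-dauer library 2. The long noncoding RNA gene lep-5 had 258 and 176 FPKM in post-dauers, against 1326 and 2072 FPKM in dauers (log2 -2.95 ± 0.28, adjusted p = 0.00016). The early-larval regulator lin-14 had 5.48 and 5.60 FPKM in post-dauers, against 20.6 and 21.1 FPKM in dauers (log2 -1.74 ± 0.22, adjusted p = 0.000472), and lin-41, active in the germ line as well as in timing, had 97.9 and 83.0 FPKM in post-dauers, against 36.9 and 27.4 FPKM in dauers (log2 1.47 ± 0.26, adjusted p = 0.00225).

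Transcription factors were often lower. Of 30 factors of gut, epidermis and stress 17 fell (56.7%, against 29.3% of all genes) and 6 rose (3 without post-dauer library 1 or 2). The zinc finger gene pqm-1, a counterpart of DAF-16 in stress responses, had 27.9 and 29.3 FPKM in post-dauers, against 91.7 and 96.5 FPKM in dauers (log2 -1.68 ± 0.14, adjusted p = 8.28e-05). The epidermal GATA factor elt-3 had 14.7 and 11.8 FPKM in post-dauers, against 44.5 and 63.1 FPKM in dauers (log2 -1.93 ± 0.22, adjusted p = 0.000358). The gut GATA factor elt-2 had 9.66 and 9.08 FPKM in post-dauers, against 15.6 and 18.9 FPKM in dauers (log2 -0.81 ± 0.21, adjusted p = 0.0109), a call that was lost without post-dauer library 2. Rises included the molting regulator nhr-23, with 25.1 and 22.4 FPKM in post-dauers, against 5.74 and 4.61 FPKM in dauers (log2 2.01 ± 0.20, adjusted p = 0.000207). Of 281 nuclear hormone receptor (nhr) genes 172 were tested, of which 85 fell and 17 rose (49.4% and 9.88%, against 29.3% and 40.2% of all genes, median log2 -0.79). Fewer rose without post-dauer library 2. Among them nhr-14 had 3.67 and 3.60 FPKM in post-dauers, against 31.1 and 33.4 FPKM in dauers (log2 -2.84 ± 0.22, adjusted p = 7.01e-05), and nhr-68 rose, with 29.3 and 22.1 FPKM in post-dauers, against 3.23 and 3.56 FPKM in dauers (log2 2.59 ± 0.32, adjusted p = 0.000446). Of 65 ceh homeobox genes 45 were tested, of which 22 fell and 13 rose (48.9% and 28.9%). In both families a gene that passes the FPKM minimum only through its dauer level has to differ, so the counts describe the genes measured. The labial-type Hox gene ceh-13 had 1.98 and 1.70 FPKM in post-dauers, against 34.5 and 36.7 FPKM in dauers (log2 -3.69 ± 0.19, adjusted p = 1.84e-05). In contrast ceh-49 had 18.7 and 22.9 FPKM in post-dauers, against 0.00 and 0.00 FPKM in dauers, where it was listed at 0.

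Families of immunity, digestion and detoxification gave a mixed picture. Of 264 C-type lectin (clec) genes 82 reached the FPKM minimum, of which 60 rose and 10 fell. The summed FPKM of the 82 was 4370 and 4797 in post-dauers, against 1098 and 1278 in dauers, and a gene that passes through its post-dauer level has to differ, so the count describes the genes measured and not the family. Transcripts of clec-87 were at 1182 and 1201 FPKM in post-dauers, against 17.9 and 23.2 FPKM in dauers (log2 5.80 ± 0.19, adjusted p = 5.34e-06), with 138 nt of its 960 nt of exons shared with iars-2 on the opposite strand. Of those that fell, clec-146 had the largest change among genes with a mean of at least 10 FPKM, with 35.3 and 26.5 FPKM in post-dauers, against 182 and 266 FPKM in dauers (log2 -2.81 ± 0.23, adjusted p = 8.71e-05). Of 21 saposin-like (spp) genes 15 rose and 4 fell: spp-17 had 901 and 937 FPKM in post-dauers, against 3.06 and 3.72 FPKM in dauers (log2 7.72 ± 0.25, adjusted p = 5.34e-06), and spp-11 had 11.6 and 7.6 FPKM in post-dauers, against 208 and 259.5 FPKM in dauers (log2 -4.49 ± 0.25, adjusted p = 2.40e-05). The pals genes, a family tied to the response to intracellular pathogens, were tested in 25 of 39 cases, of which 18 fell. Their summed FPKM was 63.09 and 88.51 in post-dauers, against 292.1 and 361 in dauers, and the same limit applies. Transcripts of pals-33 fell, with 0.97 and 1.43 FPKM in post-dauers, against 61.8 and 69.1 FPKM in dauers (log2 -4.92 ± 0.40, adjusted p = 8.51e-05). The single rise, pals-23, was lost without post-dauer library 2 or dauer library 1, and 2 rose without either aak(0) post-dauer library.

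Detoxification enzymes fell and rose within each family, as did genes at large (29.3% lower and 40.2% higher). Of 81 cytochrome P450 (cyp) genes 56 were tested, of which 26 fell and 15 rose (46.4% and 26.8%), and fewer rose without post-dauer library 2. A cyp gene that passes the FPKM minimum only through its dauer level has to differ, so the counts describe the genes measured. The gene cyp-34A2 had 14.2 and 10.6 FPKM in post-dauers, against 495 and 442 FPKM in dauers (log2 -5.14 ± 0.19, adjusted p = 7.22e-06), with 89 nt of its 1766 nt of exons shared with T10H4.17 on the opposite strand. The opposite direction was taken by cyp-31A2, needed for the eggshell lipid layer, with 76.6 and 75.1 FPKM in post-dauers, against 1.93 and 2.78 FPKM in dauers (log2 4.53 ± 0.18, adjusted p = 8.27e-06). Of 54 UDP-glucuronosyltransferase (ugt) genes 19 fell and 15 rose (35.2% and 27.8%), with ugt-66 at 5.48 and 3.44 FPKM in post-dauers, against 143 and 153 FPKM in dauers (log2 -4.80 ± 0.29, adjusted p = 3.01e-05) and ugt-44 at 18.7 and 26.0 FPKM in post-dauers, against 0.17 and 0.20 FPKM in dauers (log2 4.28 ± 0.58, adjusted p = 0.000709). Of 36 glutathione S-transferase (gst) genes 12 rose and 10 fell (33.3% and 27.8%), with gst-27 at 111 and 110.2 FPKM in post-dauers, against 3.12 and 9.85 FPKM in dauers (log2 4.06 ± 0.41, adjusted p = 0.000199) and gst-41 at 9.60 and 4.61 FPKM in post-dauers, against 52.7 and 79.5 FPKM in dauers (log2 -3.09 ± 0.45, adjusted p = 0.000958). Of 53 transthyretin-like (ttr) genes, which encode secreted proteins, 23 fell and 13 rose (43.4% and 24.5%). The range was wide, from ttr-42, with 160.1 and 251 FPKM in post-dauers, against 1.76 and 1.27 FPKM in dauers (log2 6.33 ± 0.29, adjusted p = 1.22e-05), to ttr-19, with 12.5 and 6.00 FPKM in post-dauers, against 134 and 243 FPKM in dauers (log2 -4.22 ± 0.50, adjusted p = 0.000377).

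Of 29 set genes, which encode SET-domain proteins such as histone methyltransferases, 19 rose and 4 fell (65.5% and 13.8%, against 40.2% and 29.3% of all genes; median log2 1.2), led by set-4, with 63.0 and 80.0 FPKM in post-dauers, against 10.8 and 12.5 FPKM in dauers (log2 2.51 ± 0.17, adjusted p = 4.77e-05). Of 37 bath genes (BTB and MATH domains) 16 rose (43.2%, near the share of all genes), and 6 fell (3 without post-dauer library 2). Of 222 F-box (fbxa) genes 111 were tested, of which 33 rose (29.7%, under the share of all genes; 20 without post-dauer library 2) and 17 fell. Histone (his) genes are reported as uncertain. Of 55 tested, 12 rose and 28 fell by limma on FPKM but 12 rose and 8 fell by edgeR, and 17 had at most 3 recovered reads in the count tables although their FPKM passed the minimum.

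Genes of embryos, which post-dauer hermaphrodites can hold as eggs, and of males were counted as well. Of 28 early zygotic genes 13 reached the FPKM minimum, with 6 higher and 6 lower (46.2% each, against 40.2% and 29.3% of all genes). The zygotic gene sdz-24 had 57.1 and 60.1 FPKM in post-dauers, against 0.00 and 1.57 FPKM in dauers (log2 5.22 ± 0.43, adjusted p = 8.69e-05). The muscle factor hlh-1 had 1.72 and 1.48 FPKM in post-dauers, against 25.3 and 31.2 FPKM in dauers (log2 -3.48 ± 0.23, adjusted p = 3.87e-05). The summed FPKM of the 13 was 302.3 and 329.3 in post-dauers, against 124.9 and 181.8 in dauers, and the endoderm genes end-1 and end-3 stayed under the minimum. Of 15 male-enriched genes 4 reached it, with 0 higher and 3 lower. The summed FPKM of these 4 was 29.19 and 20.85 in post-dauers, against 75.57 and 194.0 in dauers. A gene that passes only through its dauer level has to differ, so the count does not describe the whole list. The part of embryos in the rises above was not tested. Several genes named above share exon bases with a neighbour on the other strand, and whether reads were counted by strand is not given in the sources used here, which leaves the values of elo-5, pod-2, ctl-2, sod-1, sod-3, sip-1, ife-3, iff-1, sars-1, inx-14, aak-1, cut-1, hlh-1 and ttr-42 less certain. On the same strand osm-3 overlaps algn-14 and lin-14 overlaps T25C12.11.

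The aak(0) libraries, also collected after 96 h and 192 h, gave a test of where the stage change differed between backgrounds. The sample labels do not state that both backgrounds were grown or sequenced together. A batch difference therefore cannot be told apart from the genotype. Of the 14692 genes 1609 (11.0%) differed in their stage change, 1137 (7.74%) with a more positive and 472 (3.21%) with a more negative change in daf-2; hzl-1. These counts moved with single libraries, from 320 without aak(0) dauer library 1 to 3862 without aak(0) post-dauer library 1, and the other counts stand under the effects of processing. The genes described next kept their call without any one of the 8 libraries.

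Glycogen genes were among them. The glycogenin gene gyg-2 had 323 and 379 FPKM in aak(0) post-dauers, against 106 and 89.4 FPKM in aak(0) dauers and a smaller rise than in daf-2; hzl-1 (log2 difference 3.98 ± 0.22, adjusted p = 0.00157). Glycogen phosphorylase pygl-1 had 416 and 359 FPKM in aak(0) post-dauers, against 199.9 and 229.9 FPKM in aak(0) dauers (log2 difference 1.97 ± 0.23, adjusted p = 0.00492). The elongase elo-5 had 134 and 93.4 FPKM in aak(0) post-dauers, against 54.5 and 59.1 FPKM in aak(0) dauers (log2 difference 2.53 ± 0.29, adjusted p = 0.00483). In all 3 both aak(0) dauer libraries were above both daf-2; hzl-1 dauer libraries and under the aak(0) post-dauers. The same held for the protease cpr-5, with 209 and 143 FPKM in aak(0) post-dauers, against 19.2 and 23.8 FPKM in aak(0) dauers (log2 difference 4.82 ± 0.51, adjusted p = 0.00389), for the saposin-like gene spp-17, with 579.9 and 1000.2 FPKM in aak(0) post-dauers, against 41.1 and 42.4 FPKM in aak(0) dauers (log2 difference 3.56 ± 0.36, adjusted p = 0.0034), and for clec-87, with 1477 and 1973 FPKM in aak(0) post-dauers, against 342 and 322 FPKM in aak(0) dauers (log2 difference 3.44 ± 0.27, adjusted p = 0.00188). The germline innexin inx-22 had 65.6 and 71.7 FPKM in aak(0) post-dauers, against 18.8 and 19.2 FPKM in aak(0) dauers (log2 difference 2.21 ± 0.26, adjusted p = 0.00514), and cyp-31A2 had 65.0 and 68.5 FPKM in aak(0) post-dauers, against 30.1 and 28.7 FPKM in aak(0) dauers (log2 difference 3.37 ± 0.25, adjusted p = 0.00182).

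Genes that fell differed in kind. The TGF-beta ligand gene daf-7 had 7.94 and 6.84 FPKM in aak(0) post-dauers, against 12.25 and 10.1 FPKM in aak(0) dauers, a narrower difference between stages than in daf-2; hzl-1 (log2 difference -3.36 ± 0.37, adjusted p = 0.00429). The Hox gene ceh-13 had 5.74 and 5.21 FPKM in aak(0) post-dauers, against 13.2 and 13.1 FPKM in aak(0) dauers (log2 difference -2.56 ± 0.27, adjusted p = 0.00405), and cyp-34A2 had 20.8 and 22.6 FPKM in aak(0) post-dauers, against 147 and 181 FPKM in aak(0) dauers (log2 difference -2.29 ± 0.27, adjusted p = 0.00554). In these the aak(0) dauers were lower than the daf-2; hzl-1 dauers. The saposin-like gene spp-11 did the opposite, with 0.47 and 0.14 FPKM in aak(0) post-dauers, against 188 and 213 FPKM in aak(0) dauers, a deeper fall than in daf-2; hzl-1 (log2 difference 2.80 ± 0.36, adjusted p = 0.00697). By lists, more positive changes in daf-2; hzl-1 were called for 37 of 131 col genes and more negative ones for 1. For the 82 clec genes these counts were 14 and 3. Over all 14692 genes 7.74% were more positive and 3.21% more negative. Without dauer library 2 the col count of more positive changes was 84, without aak(0) dauer library 1 it was 12, without post-dauer library 1 it was 17 and without post-dauer library 2 it was 22. For clec genes it was 8 without post-dauer library 1 or 2 or aak(0) dauer library 2, 7 without aak(0) dauer library 1, and 24 without dauer library 2 or aak(0) post-dauer library 1. The more negative changes numbered from 0 to 2 in col genes and 1, 1 and 0 in clec genes without post-dauer library 1, aak(0) dauer library 1 or aak(0) dauer library 2.

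**Figure D5:**
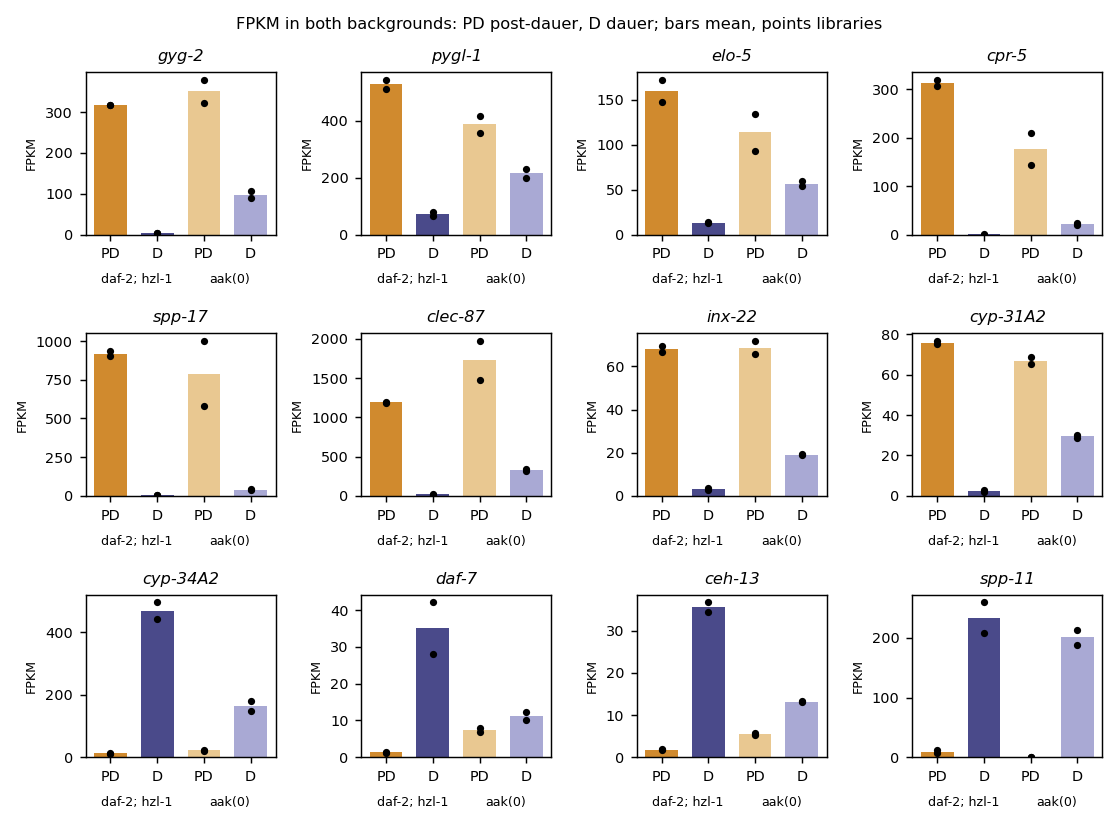
FPKM of 12 genes whose stage change differed between backgrounds in every leave-one-out fit, as bars for means and points for the 2 libraries of a group, with daf-2; hzl-1 post-dauers and dauers on the left and aak(0) post-dauers and dauers on the right of each panel. In the 8 genes that rose, daf-2; hzl-1 dauers lie under aak(0) dauers, as for gyg-2 at 4.98 and 4.33 FPKM against 106 and 89.4 FPKM.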

How the data were processed

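RNA of whole hermaphrodites was poly(A)-selected and sequenced as paired ends, per the labels' protocols. The submitters' processing notes name Trimmomatic 0.35, STAR 2.7.1a, RSEM, DESeq2 1.30.1 and build WBcel235, with no role given. The authors deposited FPKM per gene, used for the main tests. The authors also deposited a signal per gene and library, counts divided by a size factor, from which whole reads were recovered for 100% of values (tolerance 1e-06). The authors' deposited tables further hold log2 fold changes (dauer over post-dauer) and adjusted p-values, used only where stated, with the sign turned to post-dauer over dauer.

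Genes averaging at least 1 FPKM over the 4 daf-2; hzl-1 libraries were tested with limma 3.58.1 (R 4.3.3) on log2(FPKM + 1), with 8 libraries and 4 groups in one fit, 4 residual degrees of freedom and Benjamini-Hochberg adjustment over all genes at 0.05. Log2 changes are on that scale, which understates the change of low genes. Values after ± are standard errors. The difference between backgrounds was tested as an interaction in the same fit. Alternatives were edgeR 4.0.16 and DESeq2 1.42.0 on recovered reads, TMM scaling, other filters, a pseudocount of 0.1, a replicate block and leaving out each library. limma and edgeR were tested on simulated data. Few genes changed in those data, unlike here, so that test does not measure the error rates of this comparison. Of the tested genes, 267 had at most 3 recovered reads over the 4 libraries.

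The members and gene lists were chosen with earlier results of these data known. Genes named are key genes of each list, the largest rise and fall of each list or name family with a mean of at least 10 FPKM and groups that do not overlap, the 8 largest rises and falls over all genes, and the targeted genes. The gene gpd-2 was added after its values were seen, as were end-1, end-3 and the trehalose and glycogen genes named without values.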

Additional observations from a re-analysis of the deposited data

Results flagged for a closer look

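The genes below are those named above whose stage change, post-dauer minus dauer, differed between daf-2; hzl-1 and aak(0) by the interaction test of limma (adjusted p under 0.05 over all genes). Each value is the log2 stage change in daf-2; hzl-1 minus that in aak(0), from 2 libraries a group. No explanation was tested.

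These genes kept the call without any one of the 8 libraries. The differences with more positive change in daf-2; hzl-1 were 5.79 for sdz-24, 4.82 for cpr-5, 4.73 for asp-2, 3.98 for gyg-2, 3.56 for spp-17, 3.44 for clec-87, 3.37 for cyp-31A2, 2.80 for spp-11, 2.53 for elo-5, 2.21 for inx-22 and 1.97 for pygl-1. The differences with more negative change were -3.36 for daf-7, -3.09 for ntc-1, -2.56 for ceh-13 and -2.29 for cyp-34A2.

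The remaining genes lost the call when at least 1 library was left out, and all but set-4, ceh-49 and hsp-4 lost it without daf-2; hzl-1 post-dauer library 1. Every one of them lost it without aak(0) dauer library 1. Among genes of metabolism and the gut the difference was 2.75 for gst-27, 2.7 for fat-6, 2.06 for lipl-1, 1.73 for gpd-1, 1.62 for pod-2, 1.46 for pmt-2, 1.42 for far-2, 1.3 for act-5, 1.26 for gsy-1, 1.06 for gpd-4, 0.979 for vha-6 and -1.21 for tre-2. For the mitochondrial gene cyc-2.2 it was 3.22, and for aak-1 it was 1.86. Among genes of the surface, defence and gonad it was 4.77 for dct-16, 3.02 for ttr-19, 2.89 for ptr-2, 2.01 for inx-8, 1.85 for ilys-5, 1.80 for inx-14 and -1.33 for clec-146. Among regulators and protein or chromatin genes it was 2.37 for nhr-68, 2.36 for ceh-49, 1.82 for hsp-4, 1.48 for set-4, 1.25 for nhr-23, 1.02 for ife-3, -1.28 for pqm-1 and -1.45 for hlh-1. For the muscle gene mup-2 it was 1.84.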

How the results depend on the processing

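The count of genes whose stage change was called in daf-2; hzl-1 stayed within 1.5 times of 10220 under every alternative run, from 8171 to 11354. The count of genes whose stage change differed between backgrounds did not. Against 1609 it was 2579 with DESeq2, and from 320 to 3862 with one library left out (453 without daf-2; hzl-1 post-dauer library 1, 454 without 2, 2719 without dauer library 2, 3862 without aak(0) post-dauer library 1, 320 and 398 without aak(0) dauer libraries 1 and 2). More positive changes (1137) ranged from 261 to 3200 with one library left out. More negative changes (472) numbered 860 with TMM, 923 with edgeR and 1141 with DESeq2, and from 59 to 662 with one library left out. The cause was not tested.

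With the replicate block the stage change was called in 9777 genes and the difference between backgrounds in 935, of which 686 were more positive and 249 more negative. Deviations of equally numbered post-dauer and dauer libraries of daf-2; hzl-1 correlated at -0.0376, and those of daf-2; hzl-1 and aak(0) post-dauers at -0.276. Paired libraries need not deviate together, so these values do not settle whether equal numbers mark pairs. No named gene changed direction under a called alternative. With 2 libraries a group and 4 residual degrees of freedom, small changes are poorly resolved.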
